A study of Mus musculus with 4 samples.

Results

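The genes described here encode the glutathione system, the metallothioneins and other enzymes that protect cells from oxidants. They were listed by name, 36 in all, and a gene was measured when the annotation of the array had at least 1 probe set naming that gene alone. That held for 33 of the 36 genes, with 67 probe sets among the 45101 on the array. Prdx1 was left out because its 5 probe sets also named another gene, and Prdx5 and Prdx6 were not analysed here. Where a gene had several probe sets, the one with the highest mean over the 4 arrays was used. All 33 genes passed the filter on dim probe sets and were among the 13271 genes tested.

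The cells were primary dermal fibroblasts from mice at postnatal day 1, kept in culture for 48 h without treatment. The knockout cells were labelled adam9 -/-, for the gene of ADAM9, a membrane-anchored metalloprotease, while the wild-type cells were adam9 +/+. Each genotype had 2 isolations with 1 array each. The sources used here do not give the strain, the number of animals behind an isolation or the design of the knockout allele. Cells differ between isolations, and on an array fewer cells of a type cannot be told apart from less RNA per cell. Values are log2 expression, so a difference of 1 is a doubling. Differences are knockout minus wild type unless stated otherwise. The p-values rest on 2 isolations per genotype, and the variance of each gene is drawn partly from the other genes. Such p-values cover only the spread between these arrays.

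As background, the transcription factor NRF2 (gene Nfe2l2) is held in the cytoplasm and marked for degradation by KEAP1. Oxidants and electrophiles free it, and it then binds antioxidant response elements and raises genes for glutathione synthesis, thioredoxin recycling and detoxification. Glutathione is a tripeptide that glutathione peroxidases use to reduce peroxides and that glutathione transferases attach to reactive compounds. Metallothioneins are small cysteine-rich proteins that bind zinc and copper, and their genes answer to metals through the transcription factor MTF1 and metal response elements. Many glutathione transferase genes are NRF2 targets as well, so these groups are not separate systems.

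Adam9 itself had values of 8.33 and 8.55 in knockout isolations 1 and 2 and of 11.58 and 11.70 in the wild type (limma difference -3.20, SE 0.147, adjusted p = 0.0242). The knockout values were above the array medians of 4.83 to 4.88, and protein was not measured. Other features of the arrays moved with genotype or with 1 array. Xist was at 10.38 and 10.40 in the knockout and at 4.29 and 4.32 in the wild type, while 3 genes of the Y chromosome (Eif2s3y, Kdm5d and Uty) stood at 7.06 to 9.31 in the wild type and at 2.26 to 2.78 in the knockout, so sex-linked expression and genotype cannot be told apart. All 6 measured proliferation markers had higher means in the knockout, with list medians of 8.95 and 9.65 against 7.14 and 6.93. The 19 macrophage markers had a median of 7.34 in wild-type isolation 1 and of 3.98 to 4.35 on the other arrays. The 14 dermal fibroblast markers had medians of 12.35, 12.43 and 12.40 in the knockout isolations and wild-type isolation 1, and of 11.42 in wild-type isolation 2. Pdgfra (10.35 against 11.93 to 12.31) and Lum (10.13 against 12.38 to 12.81) were lowest there. So were Col1a1, Col1a2, Col3a1, Col6a1, Col6a2, Dcn and Fbln1. Vim was highest there (13.81 against 13.59 to 13.79), and Thy1, Fbln2, Twist2 and Prrx1 were not lowest there. Of the 10 pericyte and smooth muscle markers, 8 had lower means in the knockout, and the list medians were 7.20 and 5.96 in the knockout isolations and 7.38 and 7.44 in the wild type. The markers differed in array order (values in knockout isolations 1 and 2, then wild-type isolations 1 and 2). Myh11 (6.55, 5.48, 8.71 and 9.57), Actg2 (9.83, 9.60, 10.50 and 11.67) and Lmod1 (6.83, 5.95, 7.08 and 7.90) were lowest in knockout isolation 2 and highest in wild-type isolation 2. Abcc9 (7.49, 6.48, 5.49 and 3.45) and Kcnj8 (8.38, 5.97, 5.86 and 4.30) were instead highest in knockout isolation 1 and lowest in wild-type isolation 2. Rgs5, Cspg4 and Notch3 were highest in wild-type isolation 1. Mcam and Des were highest in wild-type isolation 2 and lowest in knockout isolation 1. The part of these features in the results below was not tested.

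None of the 33 genes passed the limma test between genotypes after Benjamini-Hochberg adjustment over all genes (adjusted p = 0.349 to 0.974). Over all genes tested, 9 passed, or 0.0678%, with 0.0527% of all genes passing as lower and 0.0151% as higher in the knockout. Before adjustment, 4 of the 33 (Mt1, Mt2, Cat and Prdx4) had a limma p under 0.05, against 11.4% of all genes. The mean was lower in the knockout for 24 genes and higher for 9, where 49.4% of all genes had a lower mean, and the median difference was -0.22 against 0.0027 for all genes. It was -0.050 without wild-type isolation 2 and -0.085 without knockout isolation 2. The difference was at least 0.5 in size for 14 genes, 13 of them lower, where 14.7% of all genes differed by as much. Both knockout values lay below both wild-type values for 11 of the 33 (22.0% of all genes) and above them for 4 (23.0% of all genes). The 33 genes thus held more lower than higher values, while their share of separated higher genes was below that of all genes.

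Much of the spread lay between isolations of the same genotype. In 20 of the 33 genes wild-type isolation 2 was the highest of the 4 arrays, which was so for 24.9% of all genes. In 20 genes the gap between the wild-type isolations was larger than the difference between the genotype means (46.6% of all genes). Knockout isolation 2 stood below knockout isolation 1 in 24 genes (53.5% of all genes) and was the lowest array for 18 (33.1% of all genes).

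**Figure D1:**
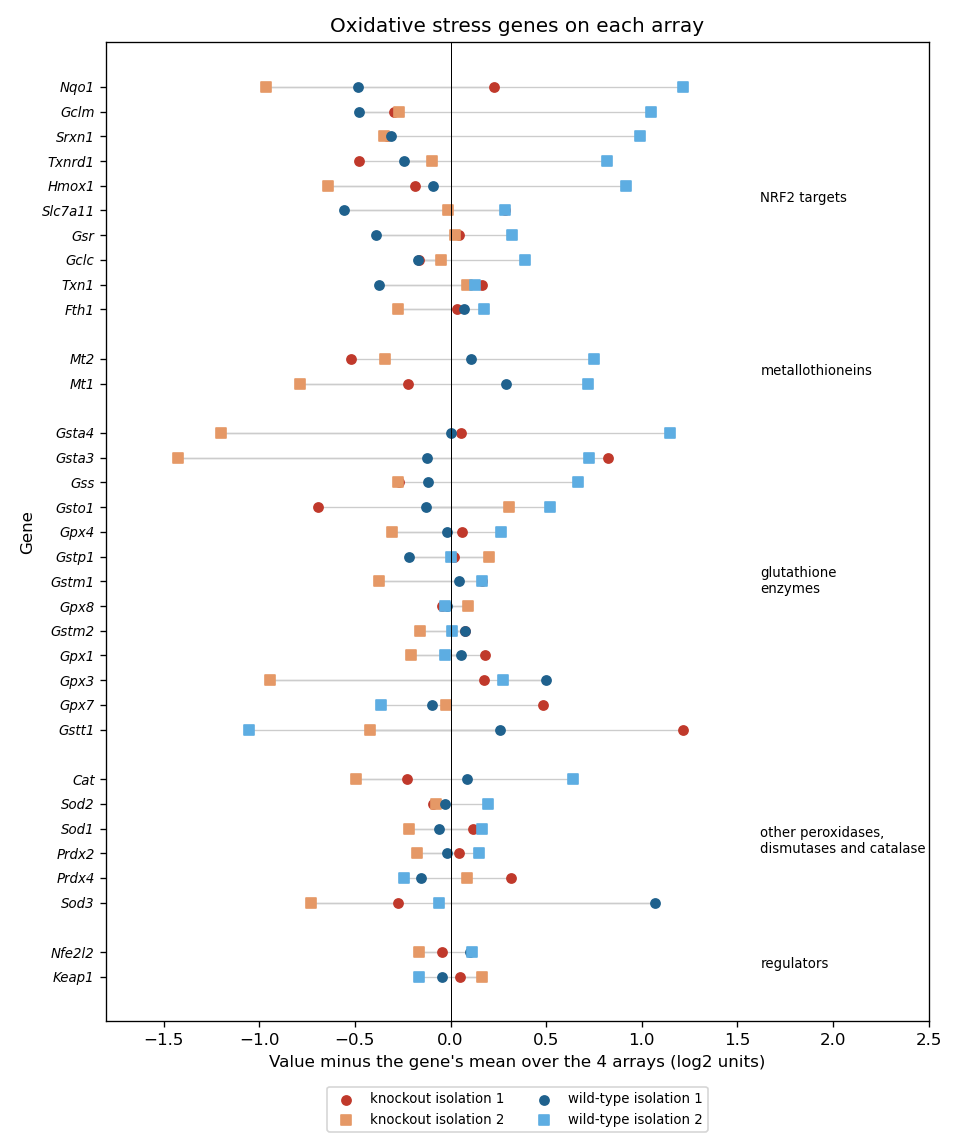
Each row is 1 gene and each mark 1 array, plotted as its value minus the gene's mean over the 4 arrays in log2 units, with genes grouped by role. Wild-type isolation 2 (light blue squares) stands at the right for 9 of the 10 NRF2 targets, and Mt1, Mt2 and Cat have both wild-type marks to the right of both knockout marks.

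Most NRF2 targets differed more between the wild-type isolations than between the genotype means, and wild-type isolation 2 was the higher. Of the 10 measured, 9 were highest in that isolation, all 10 were higher there than in wild-type isolation 1 (49.3% of all genes), and 5 were higher by at least 1 log2 unit, which held for 0.844% of all genes. For Slc7a11 the margin was very small (6.4380 against 6.4371 in knockout isolation 1), and its second probe set was highest in knockout isolation 2. The second Fth1 probe set was highest in wild-type isolation 1. The second, dimmer Txn1 probe set was lower in wild-type isolation 2 (5.48) than in wild-type isolation 1 (5.57). Over the 10 genes the median gap between the wild-type isolations was 0.92, against a median genotype difference of -0.40. The genotype difference without wild-type isolation 2 had a median of 0.088, and without wild-type isolation 1 it was -0.80, so wild-type isolation 2 also stood above the knockout arrays. Leaving out knockout isolation 2 gave -0.21.

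Gclm encodes the modifier subunit of glutamate-cysteine ligase, the enzyme of the first step of glutathione synthesis. It stood at 10.25 and 10.28 in the knockout isolations, at 10.07 in wild-type isolation 1 and at 11.59 in wild-type isolation 2. Only the last array was high, and wild-type isolation 1 was the lowest of the 4. The genotype means were 10.26 ± 0.0195 and 10.83 ± 1.08 (SD, n = 2 each), with a limma difference of -0.57 (SE 0.530, adjusted p = 0.713). The gap of 1.53 between the wild-type isolations was larger in size than that of 98.7% of all genes. Its second probe set was also highest in wild-type isolation 2, at 6.30, 6.75, 6.49 and 7.91 in knockout isolations 1 and 2 and wild-type isolations 1 and 2. Gclc, the catalytic subunit of the same enzyme, had a smaller gap, at 8.47 and 8.59 in the knockout and 8.47 and 9.03 in the wild type.

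Srxn1, sulfiredoxin, restores peroxiredoxins that were inactivated by over-oxidation. It had 8.79 and 8.78 in the knockout, 8.82 in wild-type isolation 1 and 10.12 in wild-type isolation 2. The 3 low arrays lay within 0.1 of each other, and the fourth stood 1.30 above wild-type isolation 1. All 4 of its probe sets were highest in wild-type isolation 2. The limma difference of -0.68 (SE 0.456, adjusted p = 0.607) became -0.030 without that isolation. Txnrd1, the selenium-containing reductase that recharges thioredoxin, stood at 9.93 and 10.31 in the knockout and at 10.17 and 11.23 in the wild type, a gap of 1.06. All 3 of its probe sets were again highest in wild-type isolation 2, and its difference of -0.58 (adjusted p = 0.619) was -0.045 without it.

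Nqo1, a quinone reductase often read as an NRF2 reporter, varied on both sides. It had 10.32 and 9.13 in knockout isolations 1 and 2 and 9.61 and 11.31 in wild-type isolations 1 and 2. The gap of 1.70 between the wild-type isolations exceeded that of 99.1% of all genes, and the gap of -1.19 between the knockout isolations (isolation 2 minus 1) exceeded 97.5% in size. The genotypes overlapped (limma difference -0.74, SE 0.712, adjusted p = 0.721). Hmox1, heme oxygenase, breaks heme down to biliverdin, iron and carbon monoxide. Its values were 10.60 and 10.15 in the knockout and 10.69 and 11.70 in the wild type, so the genotypes were separated by a narrow margin (limma difference -0.83, SE 0.392, adjusted p = 0.507; -0.32 without wild-type isolation 2).

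The remaining NRF2 targets showed smaller gaps. Slc7a11, the cystine transporter subunit that supplies cysteine for glutathione, stood at 6.44 and 6.14 in the knockout and 5.60 and 6.44 in the wild type. Gsr, which reduces oxidised glutathione, stood at 8.21 and 8.19 against 7.78 and 8.49. Txn1, thioredoxin, stood at 12.86 and 12.78 against 12.32 and 12.82. In these 3 genes wild-type isolation 1 was the lowest array, and their genotype differences were 0.27, 0.066 and 0.25 (limma adjusted p = 0.689 to 0.947). The second Txn1 probe set was instead lowest in wild-type isolation 2. Fth1, the ferritin heavy chain that stores iron, had the narrowest gap between the wild-type isolations, 0.10, with values of 13.87 and 13.56 in the knockout and 13.91 and 14.01 in the wild type (limma difference -0.24, SE 0.164, adjusted p = 0.609). The genotypes were separated by a narrow margin.

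**Figure D2:**
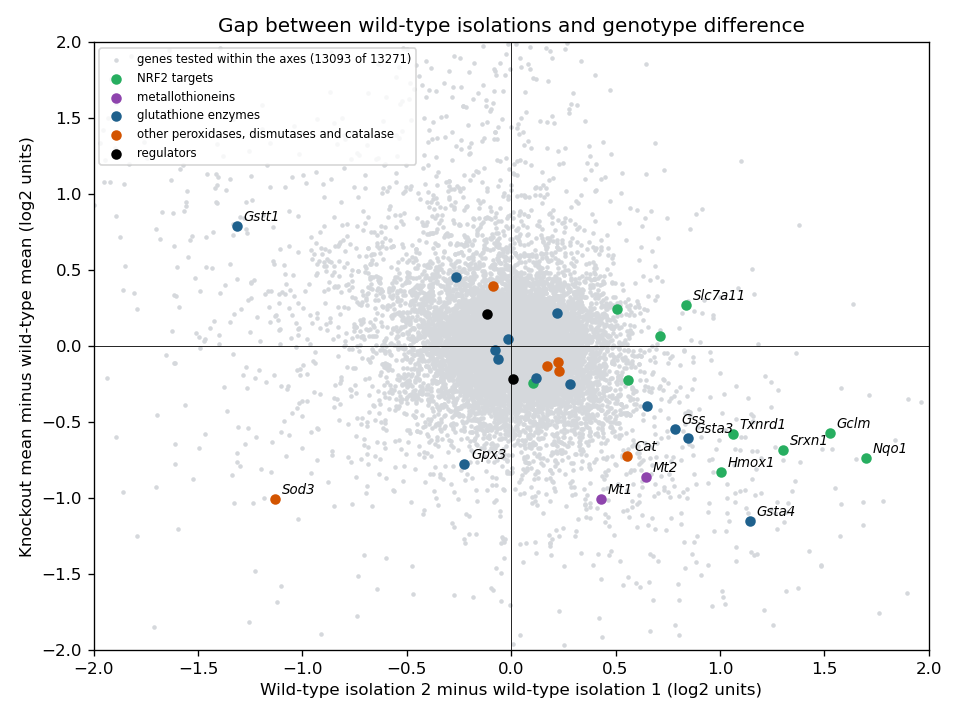
Each grey point is 1 tested gene, placed by wild-type isolation 2 minus wild-type isolation 1 (horizontal) and by knockout mean minus wild-type mean (vertical), both in log2 units; the axes are limited to 2 in each direction. Gclm, Nqo1, Srxn1, Txnrd1 and Hmox1 lie at gaps of 1.01 to 1.70, while Mt1 and Mt2 have differences of -1.01 and -0.86 with gaps of 0.43 and 0.64. Both wild-type arrays enter both axes, so a slope between the axes is not read as a result.

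Promoter windows of 300 bases, from 250 before to 50 after the start site, were taken from RefSeq (GRCm38.p6). Of the 36 genes, 30 had 1 or more windows, 37 windows in all, and Gclc, Gsr, Hmox1, Gsta4, Sod3 and Prdx6 had none. The core of the antioxidant response element, TGACNNNGC on either strand, was found in 12.4% of all 32851 windows. Among the NRF2 targets it was found in 4 of 11 windows, those of Gclm, Srxn1, Txnrd1 (1 of its 3) and Prdx1, and no match was found in the Nqo1 window. A match is a description of the letters only. The windows of Gclm, Srxn1 and Txnrd1 are shown because these genes had the gaps described above and a match; capitals mark the match, which lies on the opposite strand in each. The Gclm match overlaps a match to the metal response element described further on.
Gclm (chr3:122245307-122245606, plus strand): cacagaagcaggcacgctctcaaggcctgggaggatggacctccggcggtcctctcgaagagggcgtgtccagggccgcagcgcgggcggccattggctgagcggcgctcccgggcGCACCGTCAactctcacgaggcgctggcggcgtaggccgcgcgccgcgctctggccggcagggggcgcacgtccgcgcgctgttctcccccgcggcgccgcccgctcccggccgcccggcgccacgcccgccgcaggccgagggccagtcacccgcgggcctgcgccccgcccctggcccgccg
Srxn1 (chr2:152105274-152105573, plus strand): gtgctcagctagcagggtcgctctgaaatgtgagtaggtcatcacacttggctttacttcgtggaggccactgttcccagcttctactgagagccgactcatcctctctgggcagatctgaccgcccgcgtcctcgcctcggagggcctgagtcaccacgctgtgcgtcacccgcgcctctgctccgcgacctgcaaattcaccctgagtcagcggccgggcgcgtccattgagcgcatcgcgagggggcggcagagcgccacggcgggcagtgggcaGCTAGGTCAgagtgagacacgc
Txnrd1 (chr10:82858956-82859255, plus strand): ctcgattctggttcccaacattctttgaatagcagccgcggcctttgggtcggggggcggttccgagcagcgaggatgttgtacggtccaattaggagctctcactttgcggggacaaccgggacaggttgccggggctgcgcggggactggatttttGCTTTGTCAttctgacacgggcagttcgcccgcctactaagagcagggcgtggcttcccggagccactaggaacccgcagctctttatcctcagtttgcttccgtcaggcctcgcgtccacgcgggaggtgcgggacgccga

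The regulators varied less. Nfe2l2, which encodes NRF2 itself, stood at 10.31 and 10.19 in the knockout and at 10.47 and 10.47 in the wild type. The wild-type isolations thus differed by 0.0064 while the NRF2 targets differed by a median of 0.92 between the same arrays. The genotypes were separated by a small amount (limma difference -0.21, SE 0.127, adjusted p = 0.566). A second, dim Nfe2l2 probe set, at 3.33 to 3.68, differed by 0.015. Keap1 was separated in the other direction, at 8.54 and 8.66 in the knockout and 8.45 and 8.33 in the wild type (limma difference 0.21, SE 0.132, adjusted p = 0.582). NRF2 activity is set largely at the protein level, which was not measured, and the cause of the gaps among its targets was not tested. Of 12 further regulators and partners of NRF2 tested, 0 passed and 2 had an unadjusted limma p under 0.05 (11.4% of all genes). The largest differences were those of Bach2, a transcriptional repressor related to the NRF2 competitor BACH1 (0.98, adjusted p = 0.422), Palb2 (0.92, adjusted p = 0.451) and the NRF2 relative Nfe2l1 (-0.49, adjusted p = 0.384). Mafg and Mafk, small Maf partners that bind DNA together with NRF2, were highest in wild-type isolation 2, at 8.88 and 8.77. The related Maff was highest in knockout isolation 1, at 7.58 and 7.38 in the knockout and 6.70 and 7.33 in the wild type. These 3 genes were chosen with their values in view.

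Mt1 and Mt2, the widely expressed metallothioneins, were separated between genotypes by more than their isolations differed. Mt1 stood at 10.77 and 10.21 in the knockout and at 11.29 and 11.72 in the wild type. All wild-type values were above all knockout values, with means of 10.49 ± 0.399 and 11.50 ± 0.303 (SD, n = 2 each). Mt1 was thus 2.01-fold lower in the knockout (limma difference -1.01, SE 0.268, unadjusted p = 0.0167, adjusted p = 0.349). Mt2 stood at 9.55 and 9.73 in the knockout and at 10.18 and 10.82 in the wild type, 1.82-fold lower in the knockout (limma difference -0.86, SE 0.256, unadjusted p = 0.0245, adjusted p = 0.384). For both genes the genotype difference exceeded the gap between the isolations of either genotype. With 1 array left out, the Mt1 difference ran from -1.29 to -0.73 and the Mt2 difference from -1.18 to -0.54, the last without wild-type isolation 2. The Mt1 probe set ends in _s_at, the suffix of probe sets that can detect several transcripts. The other Mt1 probe set was dim, at 4.64 to 5.25, and differed by -0.11.

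Mt1 and Mt2 are neighbours on chromosome 8. Their windows held 3 and 4 matches to the core of the metal response element, TGCACNC or TGCGCNC on either strand. At least 1 match was found in 25.7% of all windows, 3 or more in 1.97% and 4 or more in 0.517%. Matches were not limited to the metallothioneins: 8 of the 30 members with a window had at least 1, and the Gclm window held 3. The Mt2 window also held the antioxidant response element core. Both windows are shown because both genes were separated between genotypes in the same direction; capitals mark the metal response element matches.
Mt1 (chr8:94178839-94179138, plus strand): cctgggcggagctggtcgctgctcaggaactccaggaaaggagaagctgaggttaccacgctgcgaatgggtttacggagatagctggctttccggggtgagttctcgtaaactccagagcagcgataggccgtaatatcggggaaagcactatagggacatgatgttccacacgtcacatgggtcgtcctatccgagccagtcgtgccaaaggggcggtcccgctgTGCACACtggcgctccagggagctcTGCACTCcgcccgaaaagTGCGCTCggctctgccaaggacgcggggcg
Mt2 (chr8:94172368-94172667, plus strand): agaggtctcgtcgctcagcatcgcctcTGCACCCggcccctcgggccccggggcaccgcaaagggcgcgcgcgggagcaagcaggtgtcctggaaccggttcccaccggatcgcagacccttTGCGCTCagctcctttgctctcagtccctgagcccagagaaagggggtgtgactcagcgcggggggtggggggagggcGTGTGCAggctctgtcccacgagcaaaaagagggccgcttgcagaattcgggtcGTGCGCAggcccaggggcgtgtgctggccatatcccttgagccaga

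Other genes of metal handling differed by less than Mt1 and Mt2. Among them was Mt3, a metallothionein best known from brain, which was dim here, at 4.74 and 4.75 in the knockout and 4.73 and 4.62 in the wild type. Of 11 tested, 0 passed and 1 had an unadjusted limma p under 0.05 (11.4% of all genes). Without overlap 2 were lower (22.0% of all genes) and 2 higher (23.0% of all genes) in the knockout, and the median difference was -0.076. Mtf1, the metal-sensing factor, stood at 7.08 and 7.19 in the knockout and 7.24 and 7.19 in the wild type. The zinc exporter Slc30a1, also an MTF1 target, stood at 7.35 and 7.42 against 7.29 and 7.29, higher in the knockout by 0.096. Ceruloplasmin, Cp, had the largest difference, -0.52 (limma adjusted p = 0.417), at low values of 4.05 to 4.77.

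The glutathione enzymes showed neither pattern as a group. Over 13 genes the median difference was -0.21, 9 were lower and 4 higher in the knockout, 4 were highest in wild-type isolation 2 and 6 in knockout isolation 1. Without knockout isolation 2 the median was 0.037. Knockout isolation 2 was lowest for 8 of the 13, and the median gap between the knockout isolations was -0.39. Gss, glutathione synthetase, resembled the NRF2 targets: it stood at 8.26 and 8.26 in the knockout, at 8.42 in wild-type isolation 1 and at 9.20 in wild-type isolation 2 (limma difference -0.55, SE 0.291, adjusted p = 0.539; -0.16 without wild-type isolation 2).

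Among the 7 glutathione transferases, 0 were lower and 1, Gstp1, was higher in the knockout without overlap (22.0% and 23.0% of all genes). Gsta4, which conjugates the lipid peroxidation product 4-hydroxynonenal, had 10.88 and 9.63 in the knockout and 10.83 and 11.97 in the wild type. Isolation 1 was alike in both genotypes, and the isolation 2 arrays lay at opposite ends (limma difference -1.15, SE 0.586, adjusted p = 0.529; -0.52 without knockout isolation 2). Gsta3, of the alpha class, stood at 6.44 and 4.19 in the knockout and 5.49 and 6.34 in the wild type. Its gap between the knockout isolations exceeded in size that of 99.8% of all genes, and the difference of -0.60 (limma adjusted p = 0.805) turned to 0.52 without knockout isolation 2. Its second, dim probe set differed by 0.17.

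Gstt1, of the theta class, was the 1 member with a higher mean of at least 0.5 in the knockout (0.79, limma adjusted p = 0.705). It was higher in isolation 1 of each genotype, at 9.92 and 8.28 in the knockout and 8.96 and 7.65 in the wild type, and without knockout isolation 1 the difference was -0.026. Gsto1, of the omega class, was higher in isolation 2 of each genotype, at 11.74 and 12.74 in the knockout and 12.31 and 12.96 in the wild type. The mu class genes Gstm1 (11.68, 11.14, 11.56 and 11.68 in the same order of arrays) and Gstm2 (10.94, 10.70, 10.93 and 10.87) varied by under 0.6 over the arrays. The pi class gene Gstp1, among the 3 members of highest mean, stood at 12.72 and 12.90 in the knockout and 12.48 and 12.70 in the wild type, separated by a narrow margin (limma difference 0.22, SE 0.155, adjusted p = 0.625). Probe sets of this family can share sequence with close relatives, and the main Gstm1 probe set ends in _x_at, the suffix for probes that may cross-hybridise, so single members are less certain.

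Of the 5 glutathione peroxidases, 3 were lower and 2 higher in the knockout, with a median of -0.024, the value of Gpx1, which turned to 0.0032 after another quantile normalization. Gpx3, the secreted selenoenzyme of plasma and matrix, stood at 8.61 and 7.49 in the knockout and 8.93 and 8.71 in the wild type. It was lowest in knockout isolation 2, and the limma difference of -0.77 (SE 0.403, adjusted p = 0.534) was -0.21 without that array. Gpx7, an endoplasmic reticulum peroxidase, was the reverse, at 11.22 and 10.72 in the knockout and 10.64 and 10.38 in the wild type, with a narrow separation (limma difference 0.46, SE 0.228, adjusted p = 0.521; 0.20 without knockout isolation 1). Gpx8, its relative in the same compartment, stayed between 11.67 and 11.81. Gpx1, the cytosolic enzyme, lay between 12.23 and 12.62. Gpx4, which reduces lipid hydroperoxides in membranes, lay between 11.99 and 12.56, lowest in knockout isolation 2 and highest in wild-type isolation 2.

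Catalase, Cat, which splits hydrogen peroxide in peroxisomes, was lower in the knockout without overlap, as were 22.0% of all genes. It stood at 10.27 and 10.00 in the knockout and 10.58 and 11.14 in the wild type, 1.65-fold lower in the knockout (limma difference -0.72, SE 0.240, unadjusted p = 0.0351, adjusted p = 0.409; -0.45 without wild-type isolation 2). The second probe set gave the same separation, with a difference of -0.92. Sod3, the extracellular superoxide dismutase, stood at 6.23 and 5.77 in the knockout and at 7.57 and 6.44 in the wild type. It was separated between genotypes and highest in wild-type isolation 1, the array in which the macrophage markers were high (limma difference -1.01, SE 0.429, adjusted p = 0.474; -0.44 without that array). The intracellular dismutases differed little, with -0.11 for the cytosolic Sod1 and -0.16 for the mitochondrial Sod2 (limma adjusted p = 0.854 and 0.695). The Sod2 sign turned with the mean over its 4 probe sets (0.012).

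Prdx4, the peroxiredoxin of the endoplasmic reticulum, was higher in the knockout without overlap, at 11.49 and 11.27 against 11.02 and 10.94 (limma difference 0.40, SE 0.146, unadjusted p = 0.0475, adjusted p = 0.433). It lies on the X chromosome, and the arrays differed in Xist as they did in genotype. Of its other 3 probe sets, 2 gave the same separation, and the dimmest, at 2.44 to 2.73, differed by -0.14. The cytosolic Prdx2 lay between 12.08 and 12.41 (limma difference -0.13, adjusted p = 0.771). Over all members, Prdx4, Gpx7, Keap1 and Gstp1 were separated on the higher side. Mt1, Mt2, Cat, Sod3, Gpx3, Hmox1, Gss, Srxn1, Sod2, Fth1 and Nfe2l2 were separated on the lower side. This holds for the probe set of highest mean. The second probe sets of Cat, Fth1 and Sod3 were also separated lower, but no other probe set of Mt1, Srxn1, Gss, Sod2 or Nfe2l2 was. The next brightest had knockout values of 8.79 and 8.69 for Srxn1, with wild-type isolation 1 at 8.63. For Sod2 they were 10.05 and 10.07, with wild-type isolation 1 at 10.01. A dimmer Sod2 probe set was separated on the higher side.

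**Figure D3:**
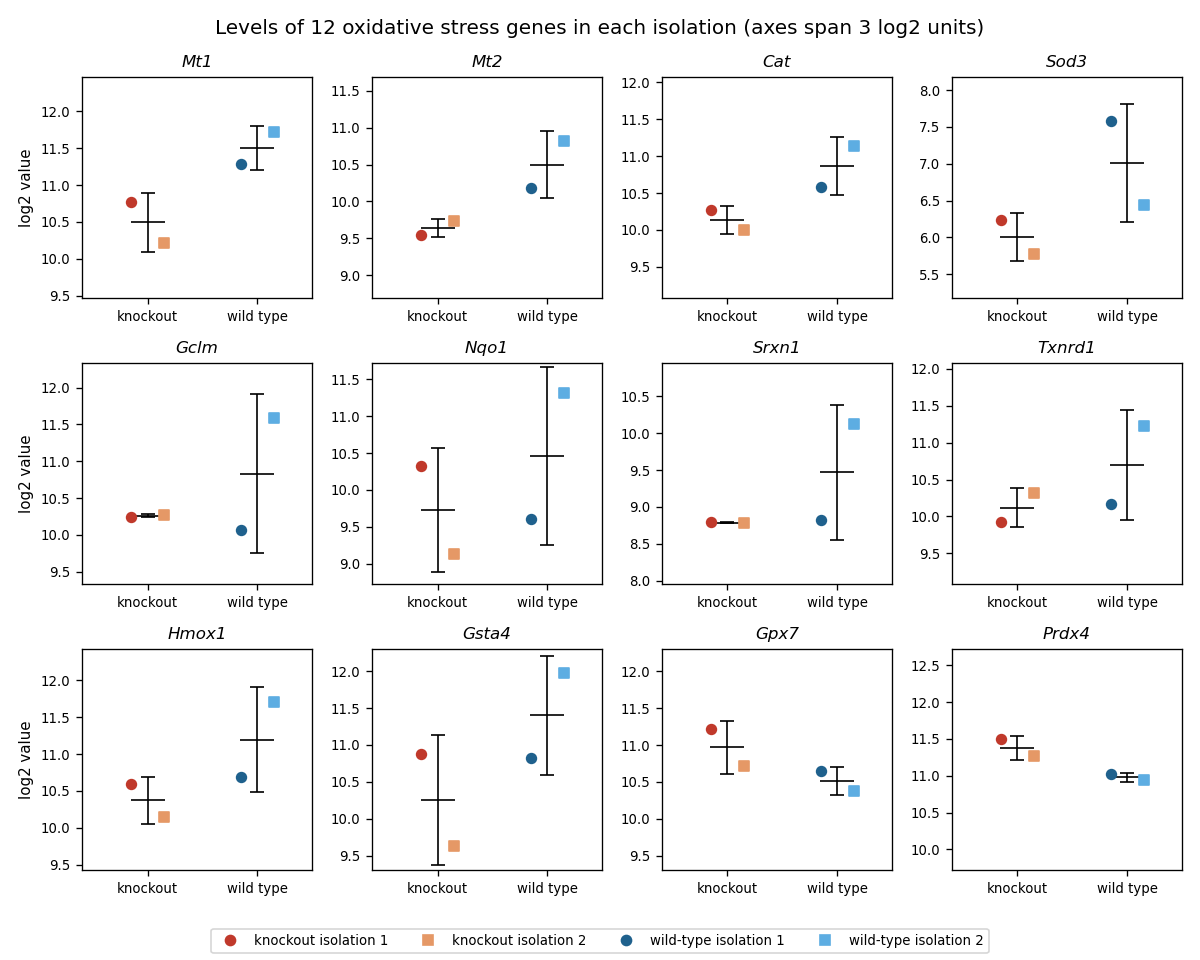
Each panel shows 1 gene with its log2 value in each isolation (marks), the genotype mean (wide line) and the SD of 2 isolations (error bar); every vertical axis spans the same range and does not start at 0. Mt1, Mt2 and Cat lie higher in both wild-type isolations, whereas Gclm, Srxn1 and Txnrd1 are high in wild-type isolation 2 and lie within 0.4 of each other on the other 3 arrays.

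The 6 members on chromosome 8, which also carries Adam9, were Gsr, Hmox1, Mt1, Mt2, Nqo1 and Prdx2. All 6 were highest in wild-type isolation 2 (24.9% of all genes), and 3 were lower in the knockout without overlap (22.0% of all genes). Their median difference was -0.78. Gsr, Hmox1, Nqo1, Mt1 and Mt2 were already counted above among the NRF2 targets and metallothioneins, so these counts are not separate from those. Of the other 697 tested genes on that chromosome, 190 were highest in wild-type isolation 2 and 170 were lower without overlap, with a median difference of 0.0015.

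A second list of 22 tested NRF2 targets, none of them members, shared the high values in wild-type isolation 2 but not the order of the other arrays. Wild-type isolation 2 was highest for 14 of the 22 (24.9% of all genes), 18 were higher there than in wild-type isolation 1, and 19 had lower means in the knockout (49.4% of all genes), 10 without overlap (22.0% of all genes). None passed the limma test, and 5 had an unadjusted p under 0.05 (11.4% of all genes). Knockout isolation 2 was lowest for 14 of them, and wild-type isolation 1 for 5. The gap between the wild-type isolations exceeded the genotype difference in 8 of the 22 (46.6% of all genes). That held for 9 of the 10 NRF2 targets among the members. The gap was at least 1 for 2 of the 22, the pentose phosphate enzyme Taldo1 (10.68 and 11.92 in wild-type isolations 1 and 2) and the exporter Abcc4 (7.81 and 9.14). The median gap of the 22 was 0.32, smaller than the 0.92 of the NRF2 targets among the members. The largest genotype difference was that of Aldh3a1, an aldehyde dehydrogenase, at 3.45 and 3.44 in the knockout and 5.091 and 5.004 in the wild type (limma difference -1.60, SE 0.124, adjusted p = 0.0693). Its wild-type isolations were alike, unlike those of the other NRF2 targets with large gaps, and its knockout values were below the array medians. Aox1 (-1.07) and Abcc4 (-1.04) followed (limma adjusted p = 0.393 and 0.496).

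Further genes of glutathione metabolism had a median difference of -0.055 over 33 tested, with 20 lower and 13 higher. Of these, 0 passed the test and 4 had an unadjusted limma p under 0.05 (11.4% of all genes). The largest differences were those of Mgst2, a membrane-bound transferase (-1.20), Gstt2 (-1.12) and Gsta2 (-0.997). Knockout isolation 2 was the lowest array for 19 of the 33. Of 22 further thioredoxin and redox genes, 13 were lower and 9 higher. Without overlap 9 were lower and 2 higher (22.0% and 23.0% of all genes), and the median difference was -0.053. The largest were the sestrin Sesn3 (9.15 and 9.07 against 10.01 and 9.61), the oxidation resistance gene Oxr1 (10.03 and 9.99 against 10.64 and 10.59) and the oxidoreductin Ero1b, with limma adjusted p = 0.271 to 0.417.

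Genes of iron and heme had a median of -0.071 over 12 tested. Slc40a1, the iron exporter ferroportin, stood at 6.42 and 6.76 in the knockout and 8.11 and 8.06 in the wild type (limma difference -1.49, SE 0.167, adjusted p = 0.109). Heph, a copper-dependent ferroxidase, stood at 7.89 and 7.49 against 6.78 and 5.78 (difference 1.41, adjusted p = 0.352), and the heme-binding gene Hebp1 differed by -0.64. Tfrc, the transferrin receptor, was high in wild-type isolation 2 alone, at 8.72 against 7.50 to 7.94, and was chosen with its values in view. Of 8 tested genes that produce oxidants, 7 were lower in the knockout, 5 without overlap (22.0% of all genes), and knockout isolation 2 was the lowest array for all 8 (33.1% of all genes). Maoa, a mitochondrial monoamine oxidase, stood at 10.24 and 9.18 against 10.93 and 11.90 (limma difference -1.71, adjusted p = 0.377). Nox4, the NADPH oxidase of fibroblasts, stood at 7.55 and 7.42 against 8.48 and 8.97 (limma difference -1.24, SE 0.211, adjusted p = 0.219). Ncf1, a subunit of the phagocyte oxidase, was 6.14 in wild-type isolation 1 and 3.83 to 3.87 on the other arrays, in the array with the high macrophage markers.

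**Figure D4:**
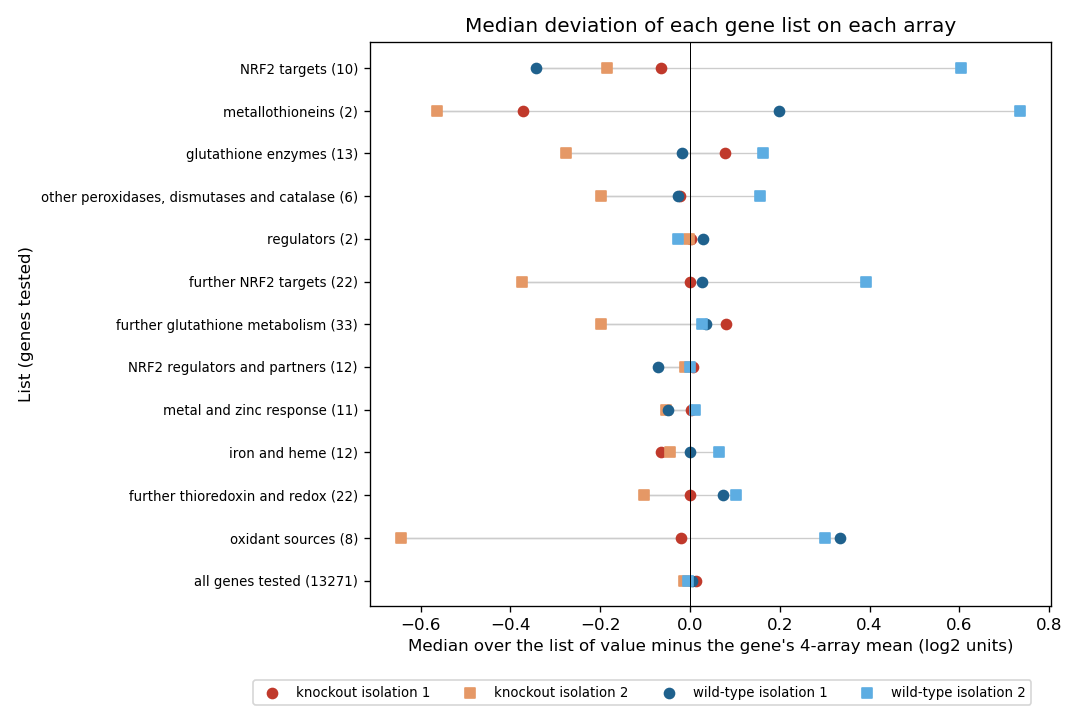
For each gene list, with the number of genes tested in brackets, marks give the median over its genes of the value minus the gene's 4-array mean, in log2 units, on each array. NRF2 targets stand at 0.60 in wild-type isolation 2 and at -0.34 to -0.066 on the other arrays, metallothioneins at 0.20 and 0.74 in the wild type and -0.37 and -0.56 in the knockout, and all genes tested close to 0.

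Set side by side, the groups differed in which arrays were high. NRF2 targets had median deviations of -0.066 and -0.18 in the knockout isolations, -0.34 in wild-type isolation 1 and 0.60 in wild-type isolation 2. For Mt1 and Mt2 these were -0.37, -0.56, 0.20 and 0.74, so that wild-type isolation 1 stood on the side of wild-type isolation 2. The glutathione enzymes had 0.077, -0.28, -0.017 and 0.16. These medians describe 4 arrays, and differences between the groups of genes were not tested.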

How the data were processed

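Expression was measured on 4 Affymetrix arrays, 2 isolations per genotype. The authors deposited 1 log2 value per probe set and array, made with Affymetrix Expression Console per the submitters' processing notes. The sources used here do not give the version, summary method or log base, and log2 was taken from the range of 1.70 to 14.4. The number of arrays limits the precision. Symbols were updated by Entrez identifier through a RefSeq table (GRCm38.p6). The probe set of highest mean stood for a gene, and genes with a mean above the 40th percentile of non-control probe sets (4.17) were tested.

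The genotype contrast was fitted in R 4.3.3 by lmFit and eBayes of limma 3.58.1 (2 residual and 2.38 prior degrees of freedom), with Benjamini-Hochberg adjustment over all 13271 genes and a threshold of 0.05. The procedure was tested on simulated data with planted differences larger than that of any member, so smaller differences were not covered. Members, roles and further gene lists were chosen with earlier results of these data known, so lists are described by counts and medians without a test. Described in full were members differing by at least 0.5, the metallothioneins, the regulators and the 3 members of highest mean; from each further list, up to 3 genes of largest difference where none passed. Genes named beyond this rule were chosen after their values were seen. Alternatives were a replicate block, other filters, normalizations, probe set rules, an intensity trend and each array left out.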

Additional observations from a re-analysis of the deposited data

How the results depend on the processing

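No member passed under any of the 13 alternatives (limma adjusted p = 0.146 to 0.998), and 18 of 33 genes kept the direction of their difference in all of them. Over all genes, 9 passed, against 2 with the replicate block and 0 with any array left out. The isolation numbers gave no sign of pairing beyond a weak one (r = 0.116 across genes between isolation differences of the genotypes), and with 2 numbers pairing could not be decided. The regulators' median was 0.071 with the mean over probe sets, and the metallothioneins' was -0.49 without _x_at and _s_at probe sets. With each array left out, class medians ran from -0.80 to 0.088 for NRF2 targets and from -0.27 to 0.037 for glutathione enzymes. Directions turned with the mean over probe sets for Gsr (-0.070) and Sod2 (0.012), and for Gpx1 (0.0032) after another quantile normalization. With an array left out, 14 genes changed direction, with ranges of -0.50 to 0.060 for Gclc, -1.33 to 0.19 for Gclm, -0.29 to 0.42 for Gsr, -1.59 to 0.12 for Nqo1, -0.0063 to 0.50 for Txn1, -0.15 to 0.69 for Slc7a11, -1.73 to 0.52 for Gsta3, -0.48 to 0.063 for Gstm1, -0.20 to 0.037 for Gstm2, -0.89 to 0.11 for Gsto1, -0.026 to 1.61 for Gstt1, -0.22 to 0.17 for Gpx1, -0.021 to 0.12 for Gpx8 and -0.27 to 0.062 for Sod1. The cause was not tested. A fit without an array assumes that the lone sample varies like the other group. The count of NRF2 targets at least 1 higher in wild-type isolation 2 was 4 or 5, and of those highest there 8 or 9, under 5 normalization and probe set alternatives chosen after seeing the data.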
